A study of Mus with 16 samples.

Results

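*Tcfl5* (ENSMUSG00000038932) and *Col9a3* (ENSMUSG00000027570) are neighbouring genes on mouse chromosome 2, and both had higher read counts in *Kdm5c* mutant than in wild-type (WT) forebrains. They are 2 of the 54219 genes in the count table. Both were selected on their fold changes in *Kdm5c*-KO males and *Kdm5c*-HET females, known from earlier results of these data, so the differences of these 2 genes between mutants and WT are given below as descriptions without a test. The study asked how loss of *Kdm5c* changes transcription in developing male and female brains. Forebrains (hippocampus and cortex) of 16 mice at postnatal day 6 (P6) were sequenced as poly(A) RNA, 1 animal per library. The groups were 4 WT males, 4 hemizygous knockout males (*Kdm5c*-KO, no intact copy of this X-linked gene), 4 WT females, and 4 heterozygous females (*Kdm5c*-HET, 1 intact copy). The mutant allele had been made by Cre-mediated deletion of coding exons, and all animals came from a mixed C57BL/6J and 129S1/SvImJ background. The study's methods name several litters, but the sample labels do not say which animal belongs to which litter, so litter was not tested.

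KDM5C removes methyl groups from lysine 4 of histone H3, a mark of active promoters, and is mostly known as a repressor of transcription. *Tcfl5* encodes a basic helix-loop-helix transcription factor that is best known from the testis, where it acts in male germ cell development. *Col9a3* encodes the α3 chain of collagen IX, a fibril-associated collagen that is assembled from the products of *Col9a1*, *Col9a2*, and *Col9a3* and decorates collagen II fibrils in cartilage.

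In RefSeq on GRCm38.p6 (mm10), *Col9a3* spans chr2:180598102-180622192 (24091 bp) and *Tcfl5* spans chr2:180621956-180642691 (20736 bp). The spans share 237 bp, 0.984% of the *Col9a3* span and 1.14% of the *Tcfl5* span. The gene table used here gives no strand, exon, or UTR boundaries, and the strand setting of the read counting is not given in the sources used here. Reads in the shared 237 bp could therefore have been given to either gene, and this was not tested. None of the 5 nearest genes on either side (0 of 10) could be paired with a row of the count table, so no other gene of this neighbourhood is described. The closest gene that could be paired, *Sox18*, lies 1027146 bp away.

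Total counts per library ranged from 21513783 to 30063352, and 17866 genes passed the filter on low counts. Levels are given as CPM (counts scaled to a common library size) after TMM normalization, and differences as Log2FC from edgeR with the standard error (SE). Only 1019 identifiers could be paired with a symbol, through the study's own list of changed genes, so every gene given with a value below was on that list. *Kdm5c* itself was not among them and its expression is not analysed here. Most marker genes of forebrain, cartilage, and other cell types were not paired either, among them *Sox10* and *Col2a1*.

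*Tcfl5* was the more strongly altered of the pair, and its level separated the mutants from WT in each sex. In WT males, *Tcfl5* had 132 counts in animal 1E (6.09 CPM), 128 in 2D (4.78 CPM), 129 in 5D (4.44 CPM), and 113 in 7D (5.06 CPM). In *Kdm5c*-KO males it had 531 counts in 2E (21.5 CPM), 579 in 3E (20.4 CPM), 518 in 4D (21.2 CPM), and 475 in 6D (18.9 CPM). All 4 *Kdm5c*-KO males were above all 4 WT males, with a gap of 12.8 CPM between the groups. The share of all genes tested that separated in this way was not computed. Separation of groups, here and below, is therefore not read as particular to the genes described. The group mean was 5.10 ± 0.711 CPM in WT males and was 20.5 ± 1.14 CPM in the knockouts (SD, n = 4 each). The Log2FC was 2.01 (SE 0.119), a fold of 4.04.

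In females the same gene was raised to an intermediate level. WT females had 103 counts in 1D (3.45 CPM), 116 in 3D (3.97 CPM), 87 in 4E (3.63 CPM), and 121 in 5E (5.30 CPM). *Kdm5c*-HET females had 255 counts in 6E (10.2 CPM), 224 in 8E (8.88 CPM), 265 in 9D (10.4 CPM), and 211 in 9E (8.94 CPM). All 4 *Kdm5c*-HET females were above all 4 WT females, with a gap of 3.58 CPM, and all were below the lowest *Kdm5c*-KO male (18.9 CPM). The mean rose from 4.09 ± 0.837 CPM to 9.62 ± 0.826 CPM (SD, n = 4 each). The Log2FC was 1.24 (SE 0.124), a fold of 2.37. In bulk tissue, more cells that express a gene and more RNA per cell cannot be told apart.

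*Col9a3* also had higher levels in the mutants of both sexes, but by a smaller fold. In WT males it had 757 counts in 1E (34.9 CPM), 1098 in 2D (41.0 CPM), 994 in 5D (34.2 CPM), and 653 in 7D (29.3 CPM). In *Kdm5c*-KO males it had 1427 counts in 2E (57.7 CPM), 1856 in 3E (65.5 CPM), 1447 in 4D (59.2 CPM), and 1132 in 6D (45.1 CPM). The groups did not overlap, but the lowest knockout, 6D, was only 4.05 CPM above the highest WT male, 2D. The means were 34.9 ± 4.82 CPM and 56.9 ± 8.54 CPM (SD, n = 4 each). The Log2FC was 0.70 (SE 0.10), a fold of 1.63.

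In WT females, *Col9a3* had 1112 counts in 1D (37.3 CPM), 1093 in 3D (37.4 CPM), 863 in 4E (36.0 CPM), and 728 in 5E (31.9 CPM). In *Kdm5c*-HET females it had 1354 counts in 6E (54.4 CPM), 1425 in 8E (56.5 CPM), 1229 in 9D (48.4 CPM), and 1302 in 9E (55.2 CPM). Again the groups did not overlap, here with a gap of 10.9 CPM. The means were 35.6 ± 2.59 CPM and 53.6 ± 3.61 CPM (SD, n = 4 each). The Log2FC was 0.59 (SE 0.10), a fold of 1.5.

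**Figure D1:**
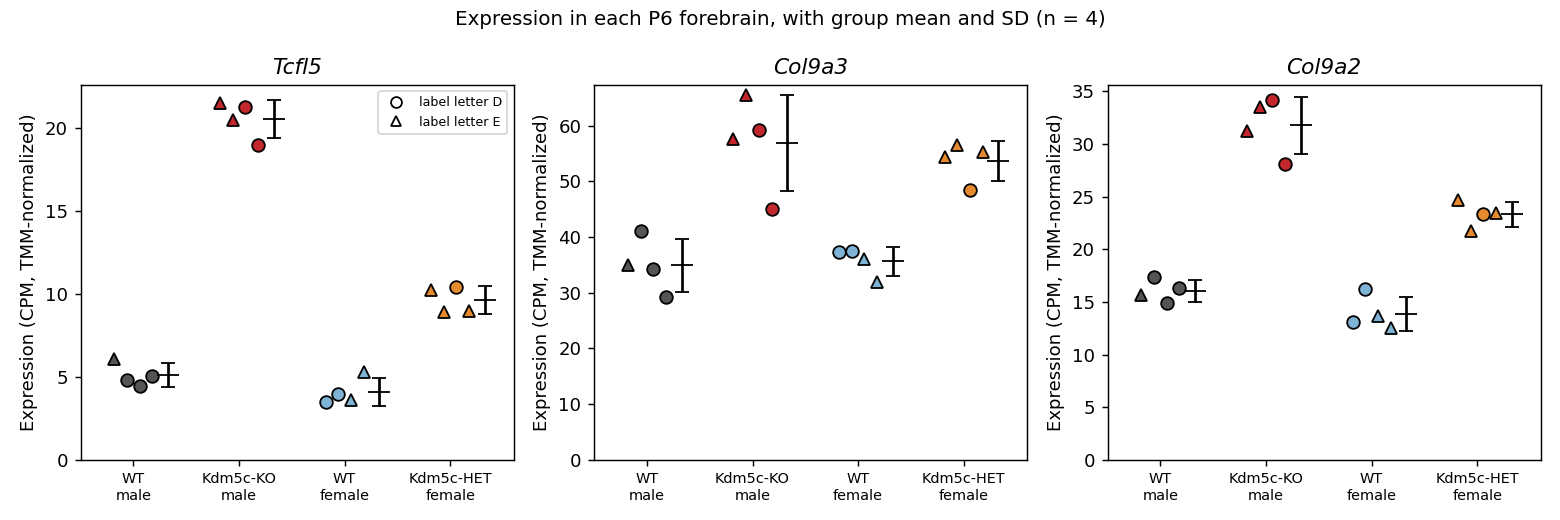
Expression of *Tcfl5*, *Col9a3*, and the second collagen IX chain *Col9a2* (vertical axes, TMM-normalized CPM from 0) in each P6 forebrain by group (horizontal axis). Points are animals, shaped by the letter in their label, and bars are the group mean and SD (n = 4). The *Kdm5c*-HET females lie between WT and *Kdm5c*-KO for *Tcfl5*, at 8.88 to 10.4 CPM, and overlap the *Kdm5c*-KO males for *Col9a3*.

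Among the 17866 genes tested, 635 (3.55%) were called upregulated in the knockout males and 86 (0.481%) in the heterozygous females by the quasi-likelihood test of edgeR at q (the p-value adjusted after Benjamini-Hochberg) under 0.1. Both *Tcfl5* and *Col9a3* were among them in both sexes, which the selection fixed. In females, *Col9a3* was no longer called without WT females 1D and 3D and *Kdm5c*-HET females 8E and 9E. Its Log2FC was then 0.60 with an SE of 0.149, against 0.59 with an SE of 0.10 over all animals. By Log2FC, *Tcfl5* ranked 43 of the 635 in males and 16 of the 86 in females, and *Col9a3* ranked 287 and 47. Over all 17866 genes, the Log2FC in *Kdm5c*-KO males had a median of -0.01.

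The size of the change is given for the sexes side by side, with no test, since both values were known when the genes were chosen. Whether the 2 genes differ in this was not tested. All mutant males lacked an intact *Kdm5c* copy and all mutant females kept 1, so sex and *Kdm5c* dose cannot be told apart here. For *Tcfl5*, the Log2FC in females was 61.7% of that in males, and the male minus female difference was 0.77 (SE 0.171). For *Col9a3*, it was 83.4%, and the difference was 0.12 (SE 0.141), smaller than its own SE. With 1 animal left out, the *Col9a3* difference ranged from 0.04 (without *Kdm5c*-KO male 3E) to 0.22 (without *Kdm5c*-KO male 6D, SE 0.120). In CPM, *Tcfl5* rose by 15.4 (SE 0.673) in males and by 5.54 (SE 0.588) in females, and *Col9a3* by 22.0 (SE 4.91) and 18.0 (SE 2.22). Ordered by mean level, *Tcfl5* ran from WT females through WT males and *Kdm5c*-HET females to *Kdm5c*-KO males, and only the neighbouring WT groups overlapped. *Col9a3* ran from WT males through WT females and *Kdm5c*-HET females to *Kdm5c*-KO males. Here the WT groups overlapped, and so did the mutant groups, since the highest *Kdm5c*-HET female had 56.5 CPM and the lowest *Kdm5c*-KO male 45.1 CPM.

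**Figure D2:**
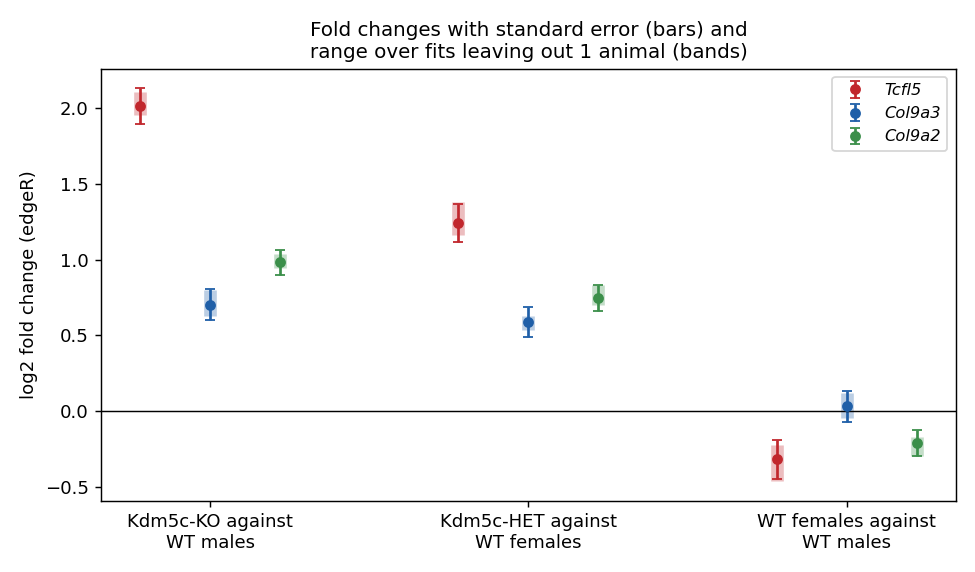
Log2FC (vertical axis) of *Tcfl5*, *Col9a3*, and *Col9a2* in 3 comparisons (horizontal axis). Points are estimates from edgeR over 16 animals, bars are the SE, and shaded bands span the 16 fits that each left out 1 animal. For *Tcfl5* the band reached from 1.95 to 2.11 (males) and from 1.16 to 1.38 (females), and for *Col9a3* between WT groups it crossed 0.

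The comparison of WT females with WT males was not used to choose the genes and was tested. By the quasi-likelihood test of edgeR, adjusted after Benjamini-Hochberg, 463 genes (2.59% of those tested) were higher and 431 (2.41%) lower in WT females at q under 0.1, and neither *Tcfl5* nor *Col9a3* was among them. *Tcfl5* had a Log2FC of -0.32 (SE 0.130, q = 0.195), with 3 of 4 WT females below the lowest WT male and WT female 5E above 3 of the 4 WT males. *Col9a3* had a Log2FC of 0.03 (SE 0.101, q = 0.906), less than its SE. This background of 894 genes in either direction itself depended on single animals: it fell to 69 without WT female 5E, 73 without WT male 5D, 319 without WT male 7D, and 436 without WT female 4E, and the q of *Tcfl5* stayed between 0.122 and 0.38 over the 16 fits that left out 1 animal.

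The number of *Tcfl5* reads per 100 *Col9a3* reads was then compared between animals, a measure that does not depend on scaling between libraries. It says nothing of which gene is more abundant, since the counts are not per transcript length. In WT males this ratio was 17.4 in 1E, 11.7 in 2D, 13.0 in 5D, and 17.3 in 7D. In *Kdm5c*-KO males it was 37.2 in 2E, 31.2 in 3E, 35.8 in 4D, and 42.0 in 6D, so that every knockout was above every WT male. The means were 14.8 ± 2.97 and 36.5 ± 4.43 (SD, n = 4 each), and the log2 ratio differed by 1.31 (SE 0.172).

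In WT females the ratio was 9.26 in 1D, 10.6 in 3D, 10.1 in 4E, and 16.6 in 5E. In *Kdm5c*-HET females it was 18.8 in 6E, 15.7 in 8E, 21.6 in 9D, and 16.2 in 9E. These groups overlapped, through WT female 5E, whose ratio exceeded those of 8E and 9E. The means were 11.6 ± 3.36 and 18.1 ± 2.69 (SD, n = 4 each), and the log2 ratio differed by 0.66 (SE 0.216). Between WT females and WT males it differed by -0.37 (SE 0.239), which an exact two-sided permutation test did not call (p = 0.171, 0.257 after Benjamini-Hochberg adjustment over 3 ratios, smallest possible p = 0.0286).

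**Figure D3:**
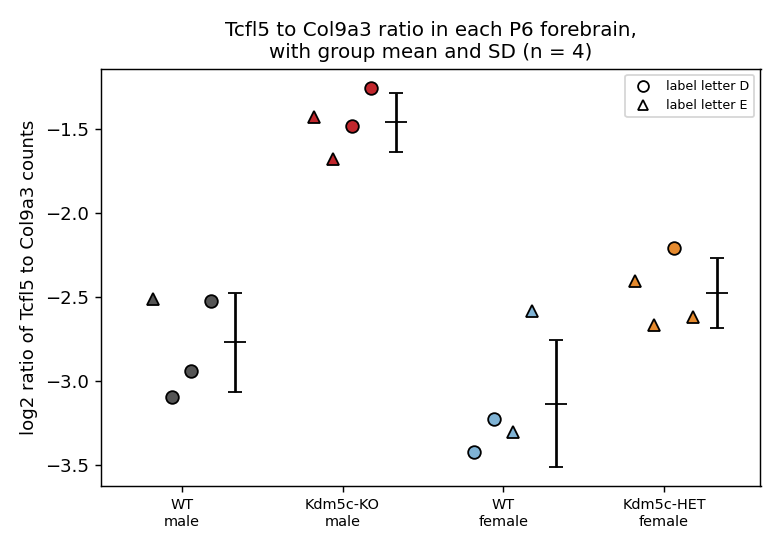
Log2 ratio of *Tcfl5* to *Col9a3* counts (vertical axis) in each P6 forebrain by group (horizontal axis). Points are animals, shaped by the letter in their label, and bars are the group mean and SD (n = 4). The *Kdm5c*-KO males stand above all other animals, while the *Kdm5c*-HET females overlap the WT females through WT female 5E.

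Each sample label also carries a letter, D or E, which is not explained, while the study's methods describe RNA isolation, library preparation, and sequencing as a single batch. The direction of the differences between mutants and WT was the same within each letter. Among animals of letter D, *Tcfl5* averaged 4.76 CPM in the 3 WT males against 20.1 CPM in the 2 knockouts, and among those of letter E 6.09 CPM in 1 WT male against 20.9 CPM in 2 knockouts. In females the averages were 3.71 CPM (2 WT) and 10.4 CPM (1 *Kdm5c*-HET) for letter D, and 4.46 CPM (2 WT) and 9.36 CPM (3 *Kdm5c*-HET) for letter E. *Col9a3* averaged 34.9 and 52.2 CPM in WT and *Kdm5c*-KO males of letter D and 34.9 and 61.6 CPM in those of letter E. In females of letter D the average was 37.4 CPM for WT against 48.4 CPM for *Kdm5c*-HET, and in those of letter E it was 33.9 against 55.4 CPM. The ratio was less even: its log2 difference in males was 1.49 for letter D and 0.96 for letter E, and in females 1.12 for letter D, with 1 *Kdm5c*-HET animal, and 0.38 for letter E.

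Whether the 2 genes varied together between animals was tested on the deviations of log2 CPM from the group means, which removes the differences that chose the genes. Over 16 animals, *Tcfl5* and *Col9a3* gave Pearson's r = -0.22 (permutation within groups, p = 0.405, 0.607 after adjustment over 3 pairs) and Spearman's rho = -0.21 (permutation p = 0.460, 0.505 after adjustment). Without the 2 animals farthest from the median in *Tcfl5*, WT female 5E and WT male 1E, r was -0.07. Without WT female 5E alone it was 0.01, and without *Kdm5c*-KO male 6D it was -0.46. With the group means kept, r over the same 16 animals was 0.81, a value that the choice of both genes for their rise in mutants sets.

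**Figure D4:**
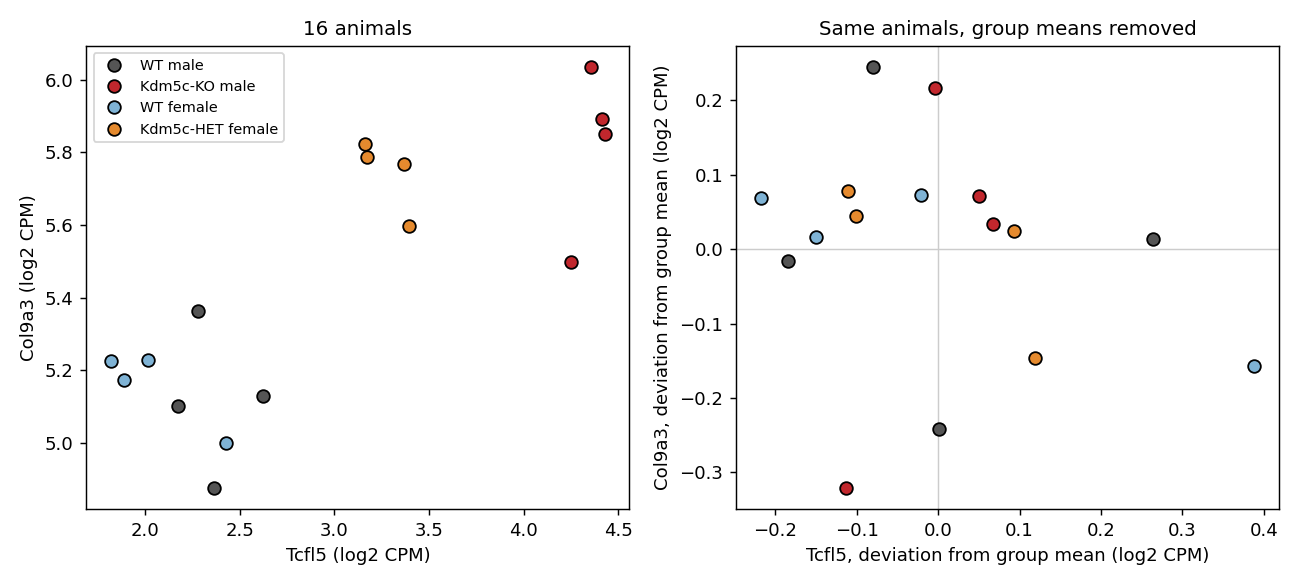
*Col9a3* (vertical axes) against *Tcfl5* (horizontal axes) in log2 CPM over 16 animals, coloured by group. The left panel shows the levels, in which the groups lie apart, and the right panel the deviations from the group means, in which r was -0.22.

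The spread of the counts within groups set how finely the pair could be compared. For *Tcfl5*, with a mean of 116 counts in WT animals, the variance within groups was 2.48 times that of counting noise alone. For *Col9a3*, with a mean of 912 counts, it was 15.1 times. Counting noise was thus a larger part of the spread of *Tcfl5* than of *Col9a3*. On the log2 scale, the SD within groups was 0.18 for *Tcfl5* and 0.17 for *Col9a3*, at the 58.6 and 56.2 percentiles of all genes tested, whose median was 0.14.

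Of the other 2 collagen IX chains, *Col9a2* (ENSMUSG00000028626, chr4:121039566-121055325) could be paired with a count and *Col9a1* could not. *Col9a2*, which lies on another chromosome, had 14.9 to 17.3 CPM in WT males, and the *Kdm5c*-KO males had 28.1 to 34.2 CPM. It had 12.5 to 16.2 CPM in WT females and 21.8 to 24.7 CPM in *Kdm5c*-HET females. The groups overlapped in neither sex, and the *Kdm5c*-HET females lay below all *Kdm5c*-KO males, as they did for *Tcfl5*. The Log2FC of *Col9a2* was 0.98 (SE 0.0821) in males and 0.75 (SE 0.0834) in females, each above that of *Col9a3*. Since *Col9a2* was taken from the study's list of changed genes, these values are a description as well.

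Within libraries, the log2 ratio of *Col9a3* to *Col9a2* was lower in *Kdm5c*-KO than in WT males by 0.28 (SE 0.110) and lower in *Kdm5c*-HET than in WT females by 0.17 (SE 0.0945), with overlap in both sexes. The log2 ratio of *Tcfl5* to *Col9a2* was higher by 1.03 (SE 0.114) in *Kdm5c*-KO males, without overlap, and by 0.49 (SE 0.186) in *Kdm5c*-HET females, where WT female 5E overlapped them. Between WT females and WT males, *Col9a3* to *Col9a2* differed by 0.26 (SE 0.112; exact two-sided permutation test, p = 0.0571, 0.171 after adjustment) and *Tcfl5* to *Col9a2* by -0.11 (SE 0.208; exact p = 0.543, also 0.543 after adjustment). *Col9a2* itself had a Log2FC of -0.21 (SE 0.0849, q = 0.191 with edgeR's test) in this comparison, and that it was not called depended on 1 animal, since without WT female 3D the Log2FC was -0.30 (q = 0.0722).

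The 2 collagen chains had the highest correlation of the 3 pairs within groups. *Col9a3* and *Col9a2* gave r = 0.54 (permutation p = 0.0555, 0.167 after adjustment) and rho = 0.56 (permutation p = 0.0509, 0.153 after adjustment). Neither passed 0.05. This r was 0.51 without *Kdm5c*-KO male 6D and WT male 7D together. It was 0.34 without 6D alone and 0.66 without 7D alone (unadjusted permutation p = 0.0207). *Tcfl5* and *Col9a2* gave r = 0.02 (permutation p = 0.959, the same after adjustment) and rho = 0.20 (permutation p = 0.505, the same after adjustment). Without WT female 5E and WT male 1E this r was 0.51. Without WT female 5E alone it was 0.45 and without WT male 1E alone 0.07, so the low value rested on WT female 5E.

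Of 150 genes in the lists, which hold the pair itself, related genes, and cell type markers, 20 could be paired, the pair included. All were paired through the study's list of changed genes. Their counts and q-values therefore come after a selection on the same animals and are no independent evidence. Among the collagens of the fibril-associated family, *Col16a1* was upregulated in *Kdm5c*-KO males (Log2FC 0.43, SE 0.126, q = 0.0684 with edgeR's test) and had the same Log2FC of 0.43 in *Kdm5c*-HET females (SE 0.124, q = 0.258). None of the 10 cartilage matrix genes or the 10 genes of collagen processing was paired. Of 22 basic helix-loop-helix and related factors, only *Hes6*, a factor of the neurogenic program, was paired. It was upregulated in *Kdm5c*-KO males (Log2FC 0.40, SE 0.0833, q = 0.00886) and had a Log2FC of 0.24 in *Kdm5c*-HET females (SE 0.0837, q = 0.458).

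Of 14 germline genes, 4 were paired. All 4 were upregulated in *Kdm5c*-KO males, against 3.55% of all genes tested, but since a gene had to be on the study's list of changed genes to be paired, this count was close to fixed and nothing is read from it. *Tex14*, which is needed for the bridges between germ cells, had a Log2FC of 3.36 in males (SE 0.186, q = 6.51e-10 with edgeR's test) and 1.35 in females (SE 0.198, q = 0.00131). *Zar1*, an oocyte gene, had 2.47 (SE 0.229, q = 7.41e-07) and 1.13 (SE 0.245, q = 0.0473). *Ddx4*, the germ cell RNA helicase, had 1.13 in males (SE 0.281, q = 0.0294) and 0.14 in females (SE 0.302, q = 0.652). *D1Pas1*, a helicase gene of the testis, had 0 to 4 counts in WT males, 37 to 88 in *Kdm5c*-KO males, 0 to 1 in WT females, and 0 to 9 in *Kdm5c*-HET females. *Tcfl5* had at least 87 counts in every WT animal.

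The paired markers of other cells are given by their range in each group. The summed level of 4 of 5 erythroid markers was 118 to 146 CPM in WT males, 66.1 to 107 in *Kdm5c*-KO males, 90.8 to 104 in WT females, and 96.1 to 103 in *Kdm5c*-HET females. The pair of choroid plexus markers (*Ttr* and *Aqp1*, 2 of 8) was at 1.48 to 205, 1.98 to 2.82, 4.00 to 195, and 3.30 to 86.6 CPM in the same order of groups. Of the oligodendrocyte lineage markers, *Bcas1* was at 27.8 to 29.1, 13.8 to 20.9, 15.99 to 32.7, and 17.7 to 31.4 CPM and *Enpp6* at 4.26 to 8.44, 2.75 to 3.97, 3.33 to 7.98, and 3.01 to 5.08 CPM. The single paired astrocyte marker (*Aqp4*, 1 of 7) was at 149 to 167, 120 to 145, 133 to 169, and 135 to 170 CPM, and the single paired forebrain neuron marker (*Emx1*, 1 of 9) at 34.4 to 41.0, 29.2 to 33.0, 27.4 to 35.2, and 29.1 to 31.9 CPM. With edgeR's test at q under 0.1, *Ttr*, *Aqp1*, *Bcas1*, *Emx1*, and 3 of the 4 erythroid markers were called lower in *Kdm5c*-KO than in WT males, as were 1.69% of all genes tested. *Aqp4* (q = 0.115) and *Enpp6* (q = 0.118) were not called by this test, and none of these was called in *Kdm5c*-HET females. In the knockouts *Tcfl5* and *Col9a3* were higher. WT male 1E had the lowest choroid plexus sum of all animals. The part of these markers in the results was not tested. None of the 7 chondrocyte or 7 meningeal and vascular fibroblast markers was paired. Without WT males 2D and 5D, which had 5380 and 5849 *Ttr* counts, the Log2FC in *Kdm5c*-KO males was 1.88 for *Tcfl5* and 0.83 for *Col9a3*. WT females 1D and 3D (5389 and 5577 *Ttr* counts) and *Kdm5c*-HET females 8E and 9E (2131 and 1361) also stood apart from the other females, which had 17 to 97. Without these 4 females, the Log2FC in *Kdm5c*-HET females was 1.21 for *Tcfl5* and 0.60 for *Col9a3*, and *Col9a3* was no longer called there.

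The genes whose log2 CPM followed each gene most closely over the 16 animals were then listed, as a description, among those with a symbol. These values mostly follow the group means and were read within libraries of the same animals. For *Tcfl5* they were *Rps4l* (r = 0.99), *Slc10a4* (r = 0.98), the tight junction gene *Cldn3* (r = 0.97), *Scarf2* (r = 0.97), and *Cilp2* (r = 0.97). *Col9a2* ranked 13 among 17865 genes for *Tcfl5* (r = 0.96), and *Col9a3* ranked 221 (r = 0.81). For *Col9a3* they were *BC024139* (r = 0.95), the monocarboxylate transporter family gene *Slc16a11* (r = 0.95), *B3gnt9* (r = 0.92), *Ccdc187* (r = 0.91), and *Col9a2* (r = 0.89). *Tcfl5* ranked 92 for *Col9a3*. Apart from *Col9a2*, these genes had Log2FC from 0.87 (*Slc16a11*) to 2.56 (*Scarf2*) in males and from 0.42 (*Cilp2*) to 1.55 (*Scarf2*) in females.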

How the data were processed

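The authors deposited read counts per gene, without normalization, for 54219 Ensembl genes. The submitters' processing notes name STAR 2.5.3a, Subread 1.5.0 with featureCounts, and mm10. Per the methods, libraries were directional, and duplicates and reads without a unique map position were removed, which lowers counts of genes with near-identical copies. Each column was matched to its animal through the sample titles.

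The analysis ran in R 4.3.3 and edgeR 4.0.16 (filterByExpr, TMM, glmQLFit of 16 animals with a mean for each group, no covariate, glmQLFTest, Benjamini-Hochberg adjustment over 17866 genes, threshold 0.1). The scripts were tested on simulated data. Log2 CPM used a prior count of 2 and log2 ratios a pseudocount of 0.5. Exact permutation tests and permutations within groups (100000 resamples) used scipy 1.17.1. With 4 animals per group, edgeR's p-values set a difference against the spread between animals, estimated with information shared over genes. Permutation p-values are the share of reorderings at least as extreme as the data. Neither takes litter into account.

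The genes and all lists were chosen with earlier results of these data known. Genes named are the pair, the paired list genes called in a comparison, and for each of the pair the 5 genes with a symbol most correlated with it, over all values and over deviations from group means. Symbols came from the study's list of changed genes, without its values, and positions from RefSeq. Alternatives were DESeq2 1.42.0, its size factors, no filter, at least 10 counts in every animal, 8 animals only, the label letter as covariate, q under 0.05, each animal left out, a pseudocount of 0, a prior count of 0.5, and 1 letter only. Leaving out WT males 2D and 5D together, or WT females 1D and 3D with *Kdm5c*-HET females 8E and 9E, and *Col9a2* in the ratio were added after the data were seen. Promoter and protein sequences were not analysed here, and the summed level of 1 marker list is not reported here.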

Additional observations from a re-analysis of the deposited data

How the results depend on the processing

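The Log2FC of *Tcfl5* and *Col9a3* in *Kdm5c*-KO males and *Kdm5c*-HET females kept their sign in all settings tried. *Col9a3* was no longer called in *Kdm5c*-HET females without WT females 1D and 3D and *Kdm5c*-HET females 8E and 9E, with a Log2FC of 0.60. With 1 animal left out, the *Tcfl5* value lay at 1.95 to 2.11 (males) and 1.16 to 1.38 (females), and that of *Col9a3* at 0.63 to 0.80 (males) and 0.54 to 0.63 (females). Between WT females and WT males, *Col9a3* ranged from -0.0436 (without WT male 7D, a change of sign) to 0.12, and was -0.0481 without WT females 1D and 3D and *Kdm5c*-HET 8E and 9E. The number of upregulated genes in males fell from 635 to 244 without WT males 2D and 5D. In females it went from 86 to 194 without the filter, to 144 with the label letter as covariate, and to between 50 (without WT female 3D) and 84 with 1 animal left out (51 without *Kdm5c*-HET 8E), and to 43 without those 4 females. The pair aside, 3 paired list genes were called upregulated in females (*Col9a2*, *Tex14*, and *Zar1*). The count was 5 with DESeq2 or without the filter. It was 2 when WT female 1D, 3D, or 5E, or *Kdm5c*-HET 8E or 9D, was left out, and 2 without those 4 females. Between WT females and WT males the 894 genes became 1529 with DESeq2, 1679 with the letter, 348 at q under 0.05, 10 without WT males 2D and 5D, and 69 to 1243 with 1 animal left out. The log2 ratio of *Tcfl5* to *Col9a3* differed by 0.96 in males of letter E, and by 1.12 and 0.38 in females of letters D and E. Within groups, r of *Tcfl5* and *Col9a3* ranged from -0.464 to 0.00589 (a change of sign without WT female 5E), and that of *Tcfl5* and *Col9a2* from -0.0931 to 0.453 with 1 animal left out and was -0.0245 without WT males 2D and 5D and -0.0497 without those 4 females. That of *Col9a3* and *Col9a2* ranged from 0.34 to 0.66, with unadjusted permutation p from 0.0207 to 0.256, under 0.05 without WT male 5D, WT male 7D, WT female 1D, or *Kdm5c*-HET 8E, 0.0366 with the letter means removed, and 0.0340 without those 4 females (r = 0.74). The cause of these shifts was not tested. No paired analysis was possible because each identifier, a number with a letter, marks 1 animal, a number recurs only under the other letter, and the labels do not say that it links animals; the letter was used as a covariate. The strand of counting and the low counts of *Tcfl5* in WT animals limit how finely the pair can be compared.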

Other observations

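After removal of the group means, other genes followed each gene more closely than its neighbour did. With so many genes compared, nothing is read from this. The values are given without a test and come from libraries that share the same 16 animals. The genes named are the highest among those with a symbol, all from the study's list of changed genes. Among all 17865 genes they ranked 7 to 84 for *Tcfl5* and 10 to 58 for *Col9a3*. For *Tcfl5* they were *Tasor2* (r = 0.81), *Zfp804a* (r = 0.79), the endothelin-converting enzyme gene *Ece1* (r = 0.75), *Zfp532* (r = 0.73), and the laminin chain gene *Lama4* (r = 0.70). *Col9a3* ranked 13037 for *Tcfl5*. For *Col9a3* they were the collagen V chain gene *Col5a3* (r = 0.85), *Iffo1* (r = 0.84), *BC024139* (r = 0.83), *Preb* (r = 0.82), and *Rap1gap* (r = 0.79). *Col9a2* ranked 1261 for *Col9a3* (r = 0.54), and *Tcfl5* ranked 13351. *BC024139* was the only gene named for *Col9a3* both over all values and over the deviations. *Col5a3* had Log2FC values of 0.82 (males) and 0.38 (females) in the mutants, whereas *Iffo1* had -0.25 and -0.02.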
